A study of Mus musculus with 7 samples.

Results

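The keratin genes were examined as a family in lists of regions carrying trimethylation of lysine 27 on histone H3 (H3K27me3), called from chromatin immunoprecipitation and sequencing of mouse epidermal progenitor cells. Members were all protein-coding genes of the RefSeq table for assembly GRCm38.p6 (the build also named mm10) whose whole symbol is Krt followed by digits, without Krt8, Krt18 and Krt20, which gave 46 of 21631 genes. Of these, 24 encode type I (acidic) keratins on chromosome 11 and 22 encode type II (basic) keratins on chromosome 15. A member was called marked when its gene body, extended by 1 kb on both sides, shared at least 1 bp with a called peak. Krt6a, Krt6b, Krt33a and Krt33b have a letter in the symbol and Krt74 is annotated as a pseudogene, so none of them was a member. The hair shaft keratin Krt85 was not found among the protein-coding genes used and was not counted.

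The cells came from the back skin of newborn mice (postnatal day 0) and were sorted as EpCAM-positive, Sca1-positive and α6-integrin-high, a gate for the basal layer of the interfollicular epidermis, with 400000 cells per immunoprecipitation. The groups were control cells and cells of the genotype labelled Ring1a/b 2KO (2KO), which lack both Ring1a and Ring1b, the catalytic subunits of Polycomb repressive complex 1, with 2 H3K27me3 libraries each. The labels state neither the alleles, nor the driver of the deletion, nor the number of animals. The titles of the 2KO libraries name H3K27me1, whereas their antibody field and peak list name H3K27me3, and the list was read as the latter. Each genotype had 1 peak list with positions and no heights, so there was no replicate error, no test between genotypes and no known depth. The control list held 3631 peaks and the 2KO list 2340. A peak within 1 kb of the gene body was called in the control list at 11.7% and in the 2KO list at 7.82% of all protein-coding genes. None of 8 basal keratinocyte marker genes, which include the members Krt5 and Krt14, was marked in either list (upper 95% Wilson bound 32.4%). Of 7 Merkel cell markers, which include Krt8, Krt18 and Krt20, 6 were marked in control and 4 in 2KO cells. In the control list Krt8 and Krt18 share 1 peak, so they are not separate calls. The counts in the control and 2KO lists were 2 and 1 of 5 dermal fibroblast, 2 and 1 of 4 melanocyte, 1 and 1 of 3 endothelial and 1 and 2 of 3 immune cell markers. A peak list gives 1 call for the whole sorted population, and a position without a peak is not shown to lack the mark.

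Keratins form the intermediate filaments of epithelial cells as pairs of a type I and a type II chain, and each kind of epithelium uses its own pairs. Krt5 and Krt14 are the pair of the basal epidermal layer, Krt1 and Krt10 replace them in suprabasal cells, and separate sets are used in the hair shaft, in the inner root sheath and in internal epithelia. H3K27me3 is laid down by Polycomb repressive complex 2, is associated with silent genes and is found most often at promoters rich in CpG dinucleotides.

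The promoters of 4 unmarked keratins are shown first, since their base composition is set beside the peak calls further on. They are the basal pair Krt5 and Krt14 and, for each cluster, the lowest-numbered hair shaft keratin with an entry, Krt31 for type I and Krt82 for type II. Each runs 5′ to 3′ from 250 bases before to 50 after an annotated start (RefSeq, GRCm38.p6, minus strand), and capitals mark the CpG dinucleotides. Krt5 lies at chr15:101712856-101713155, Krt14 at chr11:100205981-100206280, Krt31 at chr11:100050502-100050801 and Krt82 at chr15:101550610-101550909.
Krt5: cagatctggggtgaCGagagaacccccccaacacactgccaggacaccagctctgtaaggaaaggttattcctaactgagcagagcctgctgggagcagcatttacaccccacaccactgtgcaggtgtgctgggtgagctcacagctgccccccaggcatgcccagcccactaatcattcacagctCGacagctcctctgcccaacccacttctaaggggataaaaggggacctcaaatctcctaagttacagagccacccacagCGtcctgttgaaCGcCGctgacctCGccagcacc
Krt14: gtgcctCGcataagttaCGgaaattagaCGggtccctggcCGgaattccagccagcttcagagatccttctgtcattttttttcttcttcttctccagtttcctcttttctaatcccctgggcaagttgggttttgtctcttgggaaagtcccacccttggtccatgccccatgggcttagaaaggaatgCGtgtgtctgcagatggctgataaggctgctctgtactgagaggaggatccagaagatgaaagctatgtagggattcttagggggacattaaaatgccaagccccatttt
Krt31: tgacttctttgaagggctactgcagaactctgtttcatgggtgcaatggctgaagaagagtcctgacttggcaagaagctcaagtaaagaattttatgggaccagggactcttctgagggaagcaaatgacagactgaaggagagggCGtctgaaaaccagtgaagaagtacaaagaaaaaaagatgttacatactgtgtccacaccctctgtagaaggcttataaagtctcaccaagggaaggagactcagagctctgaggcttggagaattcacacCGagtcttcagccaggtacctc
Krt82: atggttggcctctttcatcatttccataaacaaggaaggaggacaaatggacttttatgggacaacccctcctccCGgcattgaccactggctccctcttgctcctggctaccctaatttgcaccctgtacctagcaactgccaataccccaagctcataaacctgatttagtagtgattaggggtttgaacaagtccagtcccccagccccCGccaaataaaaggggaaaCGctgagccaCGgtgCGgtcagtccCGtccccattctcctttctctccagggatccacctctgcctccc
The windows held 6, 5, 2 and 6 CpG dinucleotides in the order printed, and no peak of either list overlapped any of them. The Krt14 window lies wholly inside the annotated gene body (100203162 to 100207510), so its start is not the right end of that gene body. The Krt31 window holds the letters TATAAA, starting at base 222.

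Few keratin genes lay at called H3K27me3 in control cells and none in the 2KO list. The number of members does not set the control share apart from that of all genes. In the control list 3 of 46 members were marked (6.52%, 95% Wilson interval 2.24 to 17.5), Krt19, Krt87 and Krt78, beside 11.7% of all protein-coding genes, which lies within that interval. In the 2KO list 0 of 46 members were marked, beside 7.82% of all genes. The upper bound of the Wilson interval for 0 of 46 is 7.71%, just below the 7.82% of all genes. Because members are not independent, so narrow a margin does not set the 2KO share apart. The 3 members were marked in the control list only, as were 5.03% of all genes. No member was marked in both lists, as 6.66% of all genes were, or in the 2KO list only, as 1.16% were. Neighbouring members share peaks and chromatin, so they are not independent observations and these intervals cover counting error only.

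Of the keratins of simple and ductal epithelia, Krt19 was marked and Krt7 and Krt23 were not. Krt19 encodes a type I keratin of simple and ductal epithelia that is also found in the hair follicle bulge. Its control peak (chromosome 11, 100143050 to 100146659, 3.61 kb) covered 56.2% of the gene body (100140810 to 100145926) and reached 733 bp past its right end. All 18 type I members with a promoter entry are transcribed from the minus strand, from right to left; Krt19 has no entry. No 2KO peak overlapped the Krt19 peak, and the nearest lay 930.9 kb away. Krt7, a type II keratin of ductal epithelia, lay 9.01 kb from the nearest control peak, the one at Krt87, and Krt23 lay 649.9 kb from any.

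Among 13 hair shaft keratins, which build the hair fibre, Krt87 alone was marked in the control list (7.69%, 1.37 to 33.3, beside 11.7% of all genes) and none in the 2KO list (upper bound 22.8%, beside 7.82%). The Krt87 peak (chromosome 15, 101436815 to 101440407, 3.59 kb) covered 27.2% of the gene body (101431490 to 101438804) and extended 1603 bp past its right end, into the space before Krt88. The nearest 2KO peak lay 561.6 kb away. The type II hair keratins that follow lay 18.7 kb (Krt81), 33.1 kb (Krt86), 44.7 kb (Krt83), 84.6 kb (Krt84) and 100.8 kb (Krt82) from this peak. The type I hair keratins lie in 2 stretches separated by keratin-associated protein genes. Those of the right stretch, Krt34, Krt31, Krt32, Krt35 and Krt36, were 101.5 to 33.6 kb from a control peak, the one at Krt19, and Krt39 and Krt40 of the left stretch were 621.7 and 599.8 kb from any.

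The peaks at Krt19 and Krt87 were narrow. Of the peaks in the control list, 33.4% were narrower than the first and 33.0% narrower than the second, and the median width of the list was 4764 bp. Of 538 control peaks measuring 3 to 4 kb, 193 overlapped a 2KO peak (35.9%, 31.9 to 40.0), compared with 1721 of all 3631 control peaks (47.4%). Neither keratin peak was kept when only peaks of 5 kb or more were used, or when the control list was reduced to its 2340 widest peaks, the size of the 2KO list.

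Krt78 was marked only through its window. The annotated gene (chromosome 15, 101946001 to 101996624) measures 50.6 kb, against a median of 7.37 kb for the members. Its right end lies 509 bp before a 49.4 kb control peak (101997134 to 102046499). That peak lies over Krt8 and Krt18, the keratin pair of simple epithelia and Merkel cells. The overlap with the window was 491 bp and none of it lay in the gene body. The promoter entry of Krt78 (101954238 to 101954537, minus strand) lies 42.6 kb from that peak. This entry lies wholly inside the annotated gene body, so its start is not the right end. On the minus strand the right end, beside the peak, is the upstream end of the annotated gene. In the 2KO list 2.38 kb of the peak was covered, at Krt8, and the nearest 2KO peak lay 5.41 kb from Krt78. Without the window, 2 members were marked in the control list, Krt19 and Krt87.

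**Figure D1:**
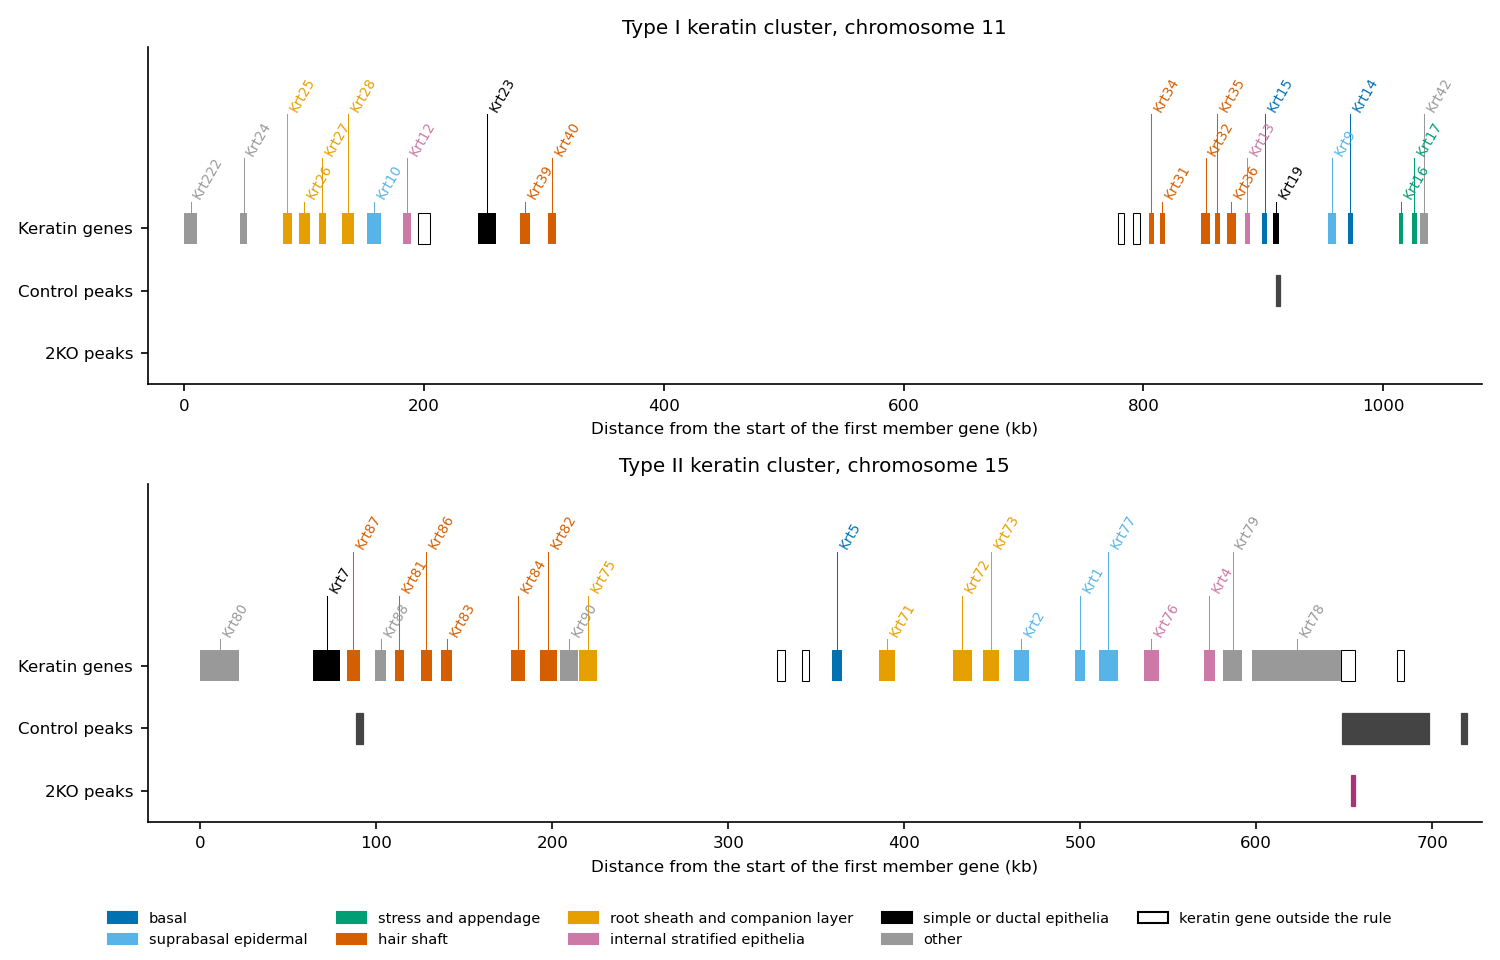
Map of the keratin clusters to scale, with distance in kb from the start of the first member on the x axis, genes coloured by site of expression, and the called peaks of each list as bars (open boxes are keratin genes outside the rule). The control list has a peak at Krt19 and a peak at Krt87 and a wide one that begins beside Krt78, followed by a narrow one, and the 2KO list has its only bar at Krt8.

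The basal and suprabasal keratins were unmarked in both lists. Of the basal genes, Krt15, which is also expressed in the hair follicle bulge, lay 7.10 kb from the control peak at its neighbour Krt19. Krt14 lay 56.5 kb from a control peak and Krt5, in the other cluster, 266.7 kb. The nearest 2KO peaks were 941.7, 870.1 and 289.1 kb from Krt15, Krt14 and Krt5. Among the 5 suprabasal genes the distance to a control peak was 40.1 kb for Krt9, the keratin of palms and soles, 127.4 kb for Krt77, 146.3 kb for Krt1, 178.2 kb for Krt2 and 745.6 kb for Krt10. Krt10 and Krt14, the type I chains of the suprabasal and the basal pair, therefore differed widely in distance although neither was marked. Of the 3 basal and 5 suprabasal genes, 0 of 8 were marked in either list, with an upper Wilson bound of 32.4% in each. These counts alone do not set them apart from the 11.7% of all genes in the control list or the 7.82% in the 2KO list.

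The other groups were unmarked as well, and at their sizes no such count sets a group apart from all genes. Krt16 and Krt17, which are induced in injured epidermis and expressed in skin appendages, lay 99.4 and 109.6 kb from a control peak. The 8 keratins of the inner root sheath and companion layer had the largest median distance of the groups to a control peak, 510.1 kb. Krt25, Krt26, Krt27 and Krt28 lay 766.1 to 791.9 kb from a control peak, Krt71, Krt72 and Krt73 lay 194.8 to 254.0 kb away, and Krt75, of the companion layer, 122.9 kb. Among the keratins of internal stratified epithelia, Krt13 lay 21.5 kb, Krt4 72.4 kb, Krt76 104.2 kb and Krt12, of the cornea, 720.5 kb from a control peak. Of the 8 members in no group, Krt78 was described above, and Krt88 (7.32 kb), Krt79 (56.8 kb), Krt80 (66.7 kb), Krt90 (111.9 kb), Krt42 (116.2 kb), Krt222 (683.3 kb) and Krt24 (730.5 kb) were unmarked.

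**Figure D2:**
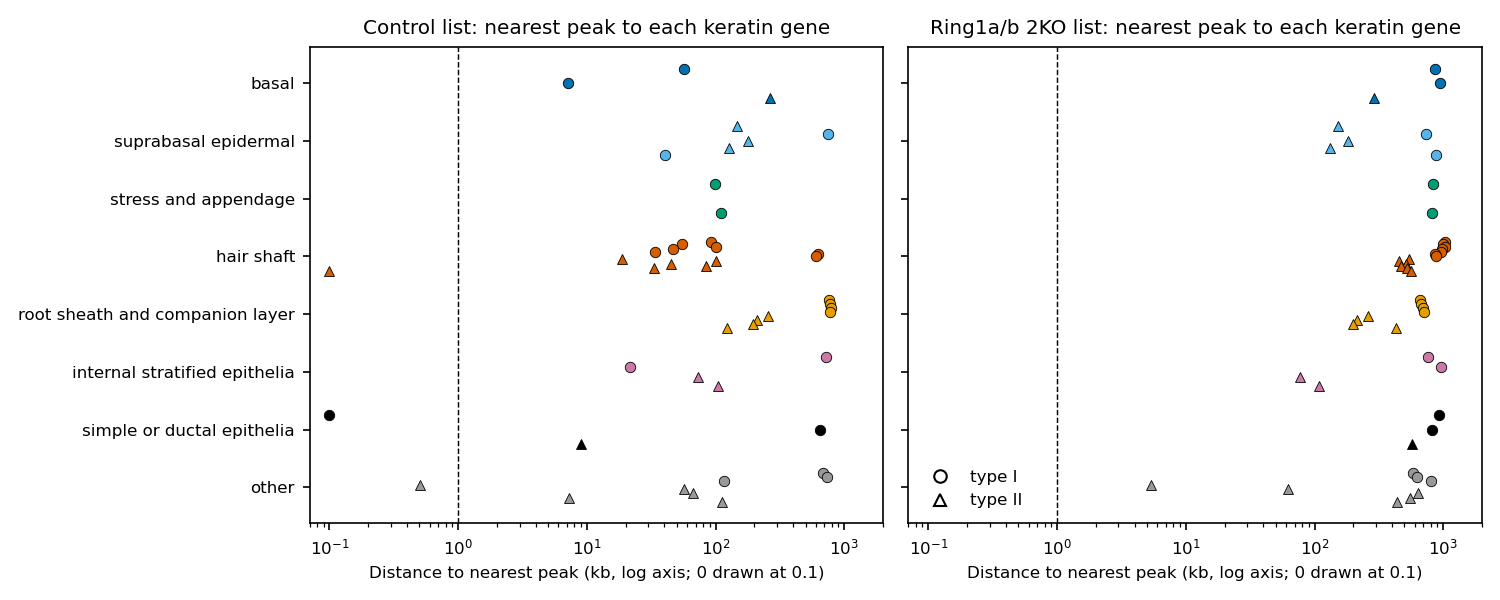
Distance from each keratin gene body to the nearest peak of the control list (left) and the 2KO list (right), in kb on a log axis with 0 drawn at 0.1, by site of expression; circles are type I, triangles type II, and the dashed line is the 1 kb window. The control panel has 3 genes left of the line, Krt19, Krt87 and Krt78, and the 2KO panel none.

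The type I and type II clusters held 1 and 2 marked members in the control list and none in the 2KO list. In the control list 1 of 24 type I members (4.17%, 0.739 to 20.2) and 2 of 22 type II members (9.09%, 2.53 to 27.8) were marked, beside 11.9% of all genes on chromosome 11 and 14.9% on chromosome 15. One of the latter 2 is Krt78, so the gene bodies themselves met 1 peak in each cluster. In the 2KO list the upper bounds were 13.8% for 0 of 24 type I and 14.9% for 0 of 22 type II members. All genes were marked there at 8.58% on chromosome 11 and 8.25% on chromosome 15, so these counts do not set the clusters apart. Called bases made up 3.61 kb of the 1.04 Mb from the first to the last type I member with the window (0.347%), compared with 1.62% between the outermost peaks of chromosome 11. In the type II cluster they made up 4.08 kb of 0.650 Mb (0.628%), compared with 1.30% for chromosome 15. Counted by number, the 1 type I peak gave 0.962 peaks per Mb, compared with 2.53 on chromosome 11, and the 2 type II peaks, the one beside Krt78 included, gave 3.08 per Mb, compared with 1.77 on chromosome 15. With 1 locus per cluster the difference between them was not tested.

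The median distance to a control peak was 112.9 kb for type I and 92.7 kb for type II members, compared with 192.2 kb for all genes. Neighbouring members share their nearest peak in either list, so each median describes where a cluster lies and is not built from independent distances. Type I distances to a control peak ran from 0 to 791.9 kb. In the 2KO list the medians were 843.5 and 358.6 kb, compared with 285.2 kb. Every type I member lay at least 578.2 kb from a 2KO peak, and the whole cluster fell in a stretch of 2423 kb without one. The type II cluster fell in a stretch of 2345 kb without a 2KO peak, which ends at Krt8. Of the 2320 intervals between neighbouring 2KO peaks, 87.3% and 86.9% were shorter than these, and their median was 296.7 kb. In the control list the type I cluster was divided at Krt19 into intervals of 1594 and 1636 kb, which were longer than 87.8% and 88.2% of the 3611 intervals of that list (median 219.3 kb), much the same rank as in the 2KO list. Most type II members, 19 of 22, lay in the 556.7 kb between the peaks at Krt87 and Krt8, an interval longer than 68.8% of those of the control list. Any chosen locus falls more often in a long interval than in a short one. An interval around a whole cluster must also be at least as long as the cluster. High ranks were therefore partly fixed in advance, and no conclusion is drawn from them.

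The other protein-coding genes inside the clusters were unmarked in both lists. These were 41 genes in the type I cluster, of which 23 are keratin-associated protein genes by symbol, and 3 in the type II cluster. Other gene families of the hair fibre and the cornified envelope were counted the same way. None of 56 keratin-associated protein genes, whose products embed the hair keratins, was marked in either list (upper bound 6.42%); the 23 inside the type I cluster are among them. None of 35 Sprr and Lce genes, which encode cornified envelope proteins, was marked in either list (upper bound 9.89%). The shares of all genes were 11.7% and 7.82%. Genes that lie side by side, such as the 23 in the type I cluster, are not independent observations. These bounds therefore cover counting error only and do not set the families apart from all genes. Outside the rule, Krt8 and Krt18, which adjoin the type II cluster, were marked in the control list and Krt8 in both. Krt20, Krt6a, Krt6b, Krt33a and Krt33b were unmarked in both lists.

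The promoters of the members were poor in CpG dinucleotides. Promoter entries matched 32 of the 46 members, with 33 windows of 300 bases because Krt13 has a pair of starts; Krt19 and Krt87 were among the 14 members not matched. The median ratio of observed to expected CpG was 0.28 over the keratin windows (quartiles 0.17 and 0.38), compared with 0.57 over 21045 windows of all protein-coding genes and 0.67 over the 1601 windows under a control peak. A ratio of 0.6 or more was found in 2 keratin windows, those of Krt28 (0.78) and Krt7 (0.64), which is 6.06% compared with 48.1% of all windows. Krt7 also had the highest GC content, 66.3%, and 21 CpG dinucleotides. The medians were 0.29 in type I and 0.27 in type II windows, and the basal genes Krt14 (0.29) and Krt5 (0.25) lay near them. The Krt14 value belongs to a start inside the annotated gene body.

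Control peaks covered 9.43% of all windows with a ratio of 0.6 or more and 5.92% of those below it. In the same classes they covered 0 of 2 and 0 of 31 keratin windows, a count that leaves out the marked genes Krt19 and Krt87. The letters TATAAA, searched on both strands and with no other motif, occurred in 16 of 33 keratin windows (48.5%), compared with 12.7% of all windows and 19.2% of all windows with a ratio under 0.6. They were found in 11 of 19 type I and 5 of 14 type II windows. Krt10, Krt31 and all 4 of Krt25 to Krt28 had a match, whereas Krt5 and Krt14 had none. Some windows, those of Krt10, Krt14 and Krt78 among them, lie wholly inside the annotated gene body. A match describes these letters only and not the use of a site.

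**Figure D3:**
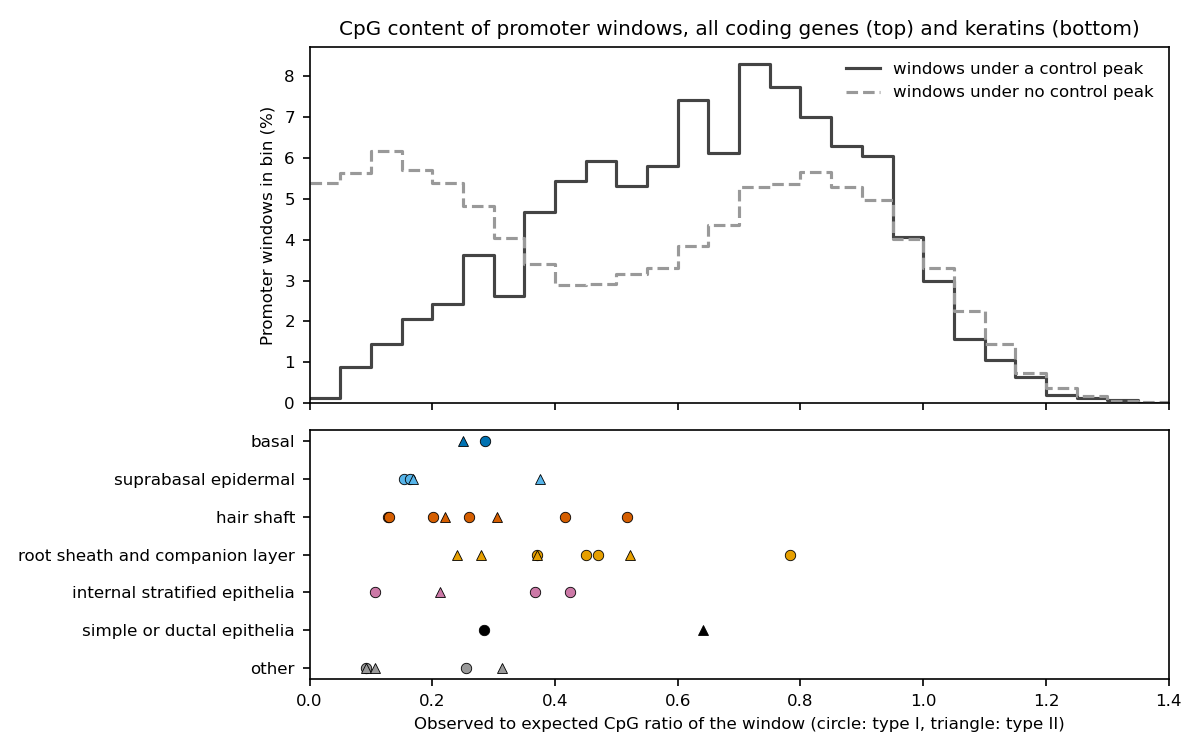
Observed to expected CpG ratio of 300-base promoter windows on the x axis, as the percentage of windows per bin for windows of all protein-coding genes under a control peak and under none (top), and for each keratin window by site of expression (bottom; circles type I, triangles type II). The keratin windows lie between 0.09 and 0.78, mostly below the median of 0.67 of the windows under a control peak.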

How the data were processed

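The authors deposited 1 list of called H3K27me3 peaks for each of 2 genotypes, with chromosome, start and end and no other value. The submitters' processing notes name Bowtie2 2.3.3.1, SAMtools 1.9 and build mm10. How peaks were called, against which background, whether replicates were pooled and how reads aligning to several places were treated is not given in the sources used here. Input and Eed cKO libraries were not analysed here. Peak starts were taken as 0-based; printed coordinates are 1-based.

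Overlaps, distances, Wilson intervals and promoter base counts were computed with scipy 1.17.1, pandas 2.3.3 and numpy 2.4.6 under Python 3.11.15 over the coding genes of chromosome X and the autosomes; figures were drawn with matplotlib 3.10.9. The overlap code was tested on simulated peaks: all 150 genes with a peak planted within 1 kb were found. All members are reported; promoters are printed for Krt5, Krt14 and 1 hair keratin per cluster. The members and groups were chosen with earlier results of these data known. Alternatives covered the window, the part of the gene, the overlap, the peak width and the symbols included.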

Additional observations from a re-analysis of the deposited data

How the results depend on the processing

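No paired analysis was possible because the libraries of a genotype share 1 list, and no replicate could be left out either. Of 71 recomputed values, 42 stayed within 1.5 times the reported one and 29 did not. Many of the 42 were 0 beside a reported 0, where such a ratio says little about stability. The 3 members marked in the control list became 6 with a window of 10 kb (Krt15, Krt7 and Krt88 added), 1 with peaks of 5 kb or wider, 1 with equal numbers of the widest peaks (Krt78 in both cases), 5 with all keratin genes and 0 at transcription starts, where Krt19 and Krt87 have no entry. The Krt78 entry used there is a start inside the annotated gene body, away from the end beside the peak. The members marked in the 2KO list, and those in both lists, went from 0 to 1 with a window of 10 kb (Krt78) and to 1 with all keratin genes (Krt8). For type I, 1 marked member became 2 at 10 kb and 0 at transcription starts, with wide peaks and with equal numbers. For type II, 2 marked members became 4 at 10 kb, 0 at transcription starts and 1 without a window, with wide peaks, with equal numbers or with 10% of the extended gene covered. The hair keratin count of 1 became 0 at transcription starts, with wide peaks and with equal numbers, and the basal and suprabasal count of 0 became 1 (Krt15) with a window of 10 kb. Called length in the type I cluster, 3.61 kb in the control list, was 0 kb with wide peaks or equal numbers. In the type II cluster 4.08 kb became 0.491 kb under both of these and 53.0 kb with the span extended by 50 kb, and the 2KO length went from 0 to 2.38 kb with that extension, which takes in the Krt8 peak. Counts at equal numbers dropped because that choice keeps control peaks of at least 3.755 kb, wider than those at Krt19 and Krt87. Depth is unknown, so a weak mark below the threshold of the lists cannot be told apart from its absence.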

Other observations

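Peaks that flank the keratin clusters were also located. To the left of the type I cluster the nearest control peak (chromosome 11, 98541440 to 98549423, 7.98 kb) lay at Ikzf3, a zinc finger gene of lymphocytes, 683.3 kb from Krt222, and 7.08 kb of it was under a 2KO peak. The nearest 2KO peak on that side (98652774 to 98654582, 1.81 kb) lay in or within 1 kb of Gsdma2, a gasdermin gene, and had no control counterpart. To the right the nearest control peak lay at Etv4, an ETS factor gene, 1512 kb from Krt42, and the nearest 2KO peak at Naglu and Hsd17b1, 807.6 kb away; neither was called in the other list. To the left of the type II cluster an 8.95 kb control peak at the sodium channel gene Scn8a, 300.6 kb from Krt80, had no 2KO counterpart, and the nearest 2KO peak, at Racgap1, lay 1691 kb from Krt80. To the right of the type II cluster, beyond the wide control peak over Krt8 and Krt18, the next control peak (chromosome 15, 102064424 to 102068287, 3.86 kb) lay within 1 kb of no protein-coding gene, 67.8 kb from Krt78, and was not called in the 2KO list. The nearest 2KO peak on that side was the one at Krt8, 5.41 kb from Krt78.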
